A study of Homo sapiens with 12 samples.

Results

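The elements described here carry the Pumilio core, the bases T, G, T, A in a row, away from the place it has in the Pumilio response element. In that element, TGTANATA in DNA letters with N for any base, the core opens the sequence. Of the 1006 entries listed in all 12 libraries, 1005 are designed elements of 8 bases and 1 is the entry EMPTY, and 32 of the elements held the core with its first occurrence at position 2, 3, 4 or 5, counted from 1 at the 5′ end. The rule that picked them uses sequence alone, though it was set with earlier results of these data known. Of the 32, 3 start at position 2, 13 at position 3, 4 at position 4 and 12 at position 5. The libraries come from HEK293T, a human embryonic kidney cell line, wild type per the labels, that carried a pool of reporter mRNAs, each with 1 element next to the hairpin that records the edits. The tested protein was human PUM2 fused to ADARcdMUT, a mutated catalytic domain of the RNA deaminase ADAR. There were 3 biological replicates in each of 4 groups: the fusion at 250 ng, the same fusion at 25 ng, ADARcdMUT without PUM2 at 1000 ng, and the fusion without induction. The titles give no substance for these amounts, and the series design names doxycycline, a drug that switches on transgenes, as the inducer. The elements are synthetic and have no position in the genome, and no source used here gives the reporter sequence on either side of them.

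PUM2 belongs to the Pumilio family, whose RNA-binding domain is built of repeats that each contact 1 base of the RNA, with the UGUA core read by the repeats near the C-terminal end. Bound mRNAs are usually repressed, through recruitment of deadenylation factors and loss of the poly(A) tail. In the RBPscan assay the deaminase carried by the protein turns nearby adenosines into inosine, which sequencing reads as G, so the edits in the recorder report where the protein sits. Editing is given here as the percent of the 7 recorder adenosines edited over all reads of an element.

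The elements that carry the comparisons are shown with the core in capitals and read 5′ to 3′. Of the 32, 24 are double substitutions and 1 is a single substitution of the consensus read from position 1, while the other 7 mismatch it at all of its 7 fixed positions. The 13 elements with the core at position 3 form a set around 1 parent, in which the bases before the core (6 elements) or after it (6 elements) change 1 at a time, and they are shown because they separate the bases on either side.
Core at 3, parent, T and A after the core: tgTGTAta
Core at 3, first base A: agTGTAta
Core at 3, first base C: cgTGTAta
Core at 3, first base G: ggTGTAta
Core at 3, second base A: taTGTAta
Core at 3, second base C: tcTGTAta
Core at 3, second base T: ttTGTAta
Core at 3, A and A after the core: tgTGTAaa
Core at 3, C and A after the core: tgTGTAca
Core at 3, G and A after the core: tgTGTAga
Core at 3, T and C after the core: tgTGTAtc
Core at 3, T and G after the core: tgTGTAtg
Core at 3, T and T after the core: tgTGTAtt
The 3 elements with the core at position 2 show the 3 bases that follow it, and 2 elements with the core at position 5 show the highest and the lowest level at 250 ng in that set.
Core at 2, C, A and T after the core: aTGTAcat
Core at 2, T, A and G after the core: aTGTAtag
Core at 2, T, G and T after the core: aTGTAtgt
Core at 5, highest: ggtaTGTA
Core at 5, lowest: tggaTGTA

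The effect of making the fusion was read at 250 ng, set against the same fusion left uninduced. All 32 shifted-core elements were edited more: their median level was 9.32% ± 0.230 at 250 ng (SD, n = 3 libraries) and 1.89% ± 0.125 without induction, a 4.94-fold difference. The median over all 8-base elements was 7.87% and 1.82%, a 4.32-fold difference. Single shifted-core elements lay between 8.0% and 11.1% at 250 ng, against 1.67% and 2.43% without induction. In limma's moderated fit on the log2 odds of an adenosine being edited all 32 passed an adjusted p under 0.05, as did every element of the library (100%), so the median log2 odds of its library was subtracted from each value. After this centring, called the relative scale here, 17 of the 32 were higher and 0 lower, where 9.64% of all 1006 entries were higher and 3.38% lower. For the 0 lower elements, 1 had an unadjusted p under 0.05, and a quasi-binomial model called 1, tgtgTGTA, as did limma without non-induced replicate 1. The median relative change of the 32 was 0.22, from -0.19 to 0.57, and that of all elements was 0.01. The 149 elements with the core at position 1, the 4 consensus elements left out, had 46 higher and 1 lower with a median of 0.11. The 168 with TGT but no core had 8 higher and 10 lower with a median of -0.02. Against the 4 consensus elements, at 13.3% ± 0.288 for 250 ng, every shifted-core element stayed lower in its mean, the nearest being aTGTAtag at 11.1% ± 0.104 beside TGTAgata at 11.5% ± 0.195. These libraries of 11235321 to 25127959 reads gave 4190 to 41848 reads per shifted-core element.

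The parent of the set with the core at position 3, tgTGTAta, is the consensus with A4G, and its core is followed by T, in what would be the free place, and by A, the next letter of the consensus. It stood at 10.2%, 10.3% and 10.6% at 250 ng, against 1.76%, 2.15% and 1.89% without induction. Likewise at 25 ng its levels were 5.32%, 5.98% and 5.27%, against 2.09%, 2.08% and 1.73% with ADARcdMUT alone. The induced libraries lay above all 6 background libraries, and the relative change at 250 ng was 0.35 (SE 0.06, limma adjusted p = 0.000679). Replacing the last base, A8, with another gave lower levels. tgTGTAtc stood at 8.02%, 8.15% and 8.07% at 250 ng, against 1.89%, 2.0% and 2.04% without induction. tgTGTAtg averaged 8.20% ± 0.0558 at 250 ng and 1.95% ± 0.175 without induction. tgTGTAtt stood at 8.28%, 8.33% and 8.30% at 250 ng, against 1.79%, 1.98% and 1.68% without induction. None of these 3 passed relative to the median, with changes of -0.08, -0.04 and 0.09 (limma adjusted p = 0.446, 0.798 and 0.385). Within the same library at 250 ng the parent exceeded tgTGTAtc by 0.40 ± 0.03 in log2 odds (SD, n = 3), tgTGTAtg by 0.37 ± 0.02 and tgTGTAtt by 0.35 ± 0.03. Without induction these differences were -0.04 ± 0.13, -0.01 ± 0.02 and 0.09 ± 0.10. The parent was higher in 3 of 3 libraries at 250 ng in each pair (two-sided exact permutation p = 0.10 for 250 ng against no induction, the smallest that 3 against 3 libraries allow, and adjusted p = 0.133 over the 12 pairs with the parent).

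The first base after the core is free in the consensus, and in the set with the core at position 3 levels differed with it. In these elements it is also position 7 of the consensus read from position 1, where T is fixed. The 2 readings cannot be told apart from these levels. With A in the last place, the level at 250 ng was 10.4% ± 0.180 with T, 9.48% ± 0.402 with A, 9.14% ± 0.177 with C and 8.0% ± 0.316 with G (SD, n = 3). tgTGTAaa stood at 9.24%, 9.26% and 9.95% at 250 ng, against 2.02%, 1.88% and 1.68% without induction. The libraries with A and with C overlapped, while the 3 libraries with T lay above those with A and the 3 with G lay below those with C. The parent exceeded tgTGTAga by 0.41 ± 0.04 log2 odds at 250 ng and by 0.03 ± 0.03 without induction (two-sided exact permutation p = 0.10, adjusted p = 0.133). Its lead over tgTGTAaa was 0.14 ± 0.04 at 250 ng and 0.06 ± 0.22 without induction, with overlapping libraries (two-sided exact permutation p = 0.90). The 4 consensus elements had 13.9% ± 0.360 with T, 13.4% ± 0.379 with C, 13.2% ± 0.328 with A and 11.5% ± 0.195 with G in the free place, so G was lowest in both series. Of the shifted elements only tgTGTAaa passed among the 3 substitutions, at a relative change of 0.26 (SE 0.08, limma adjusted p = 0.0409), and it kept that call only when non-induced replicate 1 was left out. Leaving out any one of the other 5 libraries ended it. tgTGTAca was at 0.09 and tgTGTAga at -0.03 (limma adjusted p = 0.393 and 0.792).

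The 6 elements changed before the core averaged 9.26% to 10.6% at 250 ng, and the 6 changed after it 8.0% to 9.48%, so the ranges overlapped. With the second base changed, tcTGTAta had the largest relative change of all 32, 0.57 (SE 0.06, limma adjusted p = 1.34e-05), and stood at 10.5%, 10.6% and 10.9% at 250 ng, against 1.59%, 1.88% and 1.68% without induction. For this element, at 25 ng its levels were 5.44%, 6.10% and 5.41%, against 2.08%, 1.88% and 1.56% with ADARcdMUT alone. ttTGTAta followed at 0.53 (SE 0.06, limma adjusted p = 3.63e-05), with 10.2%, 10.2% and 10.6% at 250 ng against 1.59%, 1.93% and 1.64% without induction. taTGTAta stood at 9.76%, 10.1% and 10.7% at 250 ng, against 1.78%, 2.19% and 1.77% without induction (relative change 0.34, limma adjusted p = 0.0016). In the same library at 250 ng the parent was above tcTGTAta in 0 of 3, above ttTGTAta in 1 of 3 and above taTGTAta in 2 of 3. The parent minus tcTGTAta was -0.04 ± 0.01 log2 odds there, minus ttTGTAta 0.00 ± 0.01 and minus taTGTAta 0.03 ± 0.04. The non-induced libraries had the parent 0.17 ± 0.02 above tcTGTAta and 0.18 ± 0.03 above ttTGTAta (for each pair, 250 ng against no induction had an exact permutation p of 0.10, two-sided, and an adjusted p of 0.133). With ADARcdMUT alone the parent was 0.10 ± 0.08 above tcTGTAta and 0.04 ± 0.19 above ttTGTAta. With the first base changed, agTGTAta stood at 9.87%, 9.93% and 10.4% at 250 ng, against 1.71%, 1.87% and 1.77% without induction (relative change 0.42, SE 0.05, limma adjusted p = 7.25e-05). ggTGTAta stood at 9.07%, 9.26% and 9.47% at 250 ng, against 1.75%, 2.02% and 1.85% without induction, a relative change of 0.22 (limma adjusted p = 0.00607). cgTGTAta stood at 8.99%, 9.22% and 9.68% at 250 ng, against 1.72%, 2.0% and 2.02% without induction, and its relative change of 0.19 did not pass (limma adjusted p = 0.0522). The parent was 0.18 ± 0.03 above cgTGTAta and 0.18 ± 0.01 above ggTGTAta at 250 ng, and in each pair it was higher in 3 of 3 libraries.

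The elements with the core at position 2 show 1 more base of the consensus tail. aTGTAtag, where T, A and G follow, had the highest level of the 32: it stood at 11.0%, 11.1% and 11.1% at 250 ng, against 1.70%, 2.14% and 2.0% without induction. Further, at 25 ng its levels were 5.97%, 6.71% and 5.86%, against 2.14%, 2.03% and 1.89% with ADARcdMUT alone. aTGTAcat, where C, A and T follow and so fit the consensus through its 7th letter, stood at 10.4%, 10.6% and 10.4% at 250 ng, against 1.65%, 1.97% and 1.82% without induction. For aTGTAcat, at 25 ng its levels were 5.39%, 6.52% and 5.57%, against 1.92%, 1.95% and 1.91% with ADARcdMUT alone. Both changed relative to the median, aTGTAtag by 0.45 (SE 0.06, limma adjusted p = 9.06e-05) and aTGTAcat by 0.46 (SE 0.06, limma adjusted p = 0.000106), and both kept the call in every fit that left out 1 library. aTGTAtgt, with G in the second place after the core, reached 8.73%, 8.36% and 8.47% at 250 ng, against 1.72%, 1.79% and 1.85% without induction, and did not pass (relative change 0.15, SE 0.07, limma adjusted p = 0.207). Its 3 libraries at 250 ng lay below all 3 of both other elements.

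Sorted by the base that the elements show in the second place after the core, A in the consensus, the starts at 2 and 3 fell into 12 elements with A and 4 with another base. Their median levels at 250 ng were 10.1% ± 0.284 with A and 8.25% ± 0.0316 without it (SD, n = 3 libraries), and without induction 1.85% ± 0.147 and 1.89% ± 0.0976. With A, 9 of 12 were higher relative to the library median at 250 ng against no induction, where 9.64% of all 1006 entries were. Without it 0 of 4 were (0 of the 4 also at an unadjusted p under 0.05 and in the quasi-binomial model), too few to set against that share. The 3 with A that did not pass were cgTGTAta, tgTGTAca and tgTGTAga. Against ADARcdMUT alone 10 of 12 and 1 of 4 were higher at 250 ng, where 10.3% of all entries were. Of the 4, tgTGTAtc, tgTGTAtg and tgTGTAtt change the A8 of 1 parent, a base also fixed in the consensus read from position 1. The same sorting of the 149 elements with the core at position 1 gave 32 of 60 higher with A and 14 of 89 without it, at median levels of 9.09% ± 0.139 and 8.08% ± 0.0341. Median relative changes were 0.34 and 0.03 for the shifted elements, beside 0.24 and 0.02 with the core at position 1. The 2 sets differ in more than the start, since the elements with the core at position 1 carry substitutions after it.

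With the core at position 5 nothing of the tail lies within the element, and the 12 elements are the double substitutions that combine A6G and T in the free place with each change at positions 1 to 4. Their median level was 9.36% ± 0.122 at 250 ng and 1.91% ± 0.124 without induction (SD, n = 3 libraries). Relative to the library median 6 of 12 were higher, where 9.64% of all 1006 entries were. ggtaTGTA stood at 10.4%, 10.3% and 10.4% at 250 ng, against 1.78%, 1.96% and 1.80% without induction, a relative change of 0.42 (SE 0.07, limma adjusted p = 0.000984). For ggtaTGTA, at 25 ng its levels were 5.43%, 5.91% and 4.99%, against 1.82%, 1.81% and 2.01% with ADARcdMUT alone. tgcaTGTA stood at 10.2%, 9.75% and 9.72% at 250 ng, against 1.67%, 1.97% and 1.88% without induction (relative change 0.35, SE 0.06, limma adjusted p = 0.000845). tttaTGTA stood at 9.70%, 9.85% and 9.79% at 250 ng, against 1.54%, 2.04% and 1.87% without induction (relative change 0.36, SE 0.08, limma adjusted p = 0.00812), a call lost without non-induced replicate 1. All libraries of these 3 at 250 ng were at 9.70% or more, beside a library median of 7.87% ± 0.0992 over the 8-base elements. agtaTGTA stood at 9.69%, 9.64% and 9.68% at 250 ng, against 1.82%, 1.94% and 1.90% without induction (relative change 0.27, SE 0.06, limma adjusted p = 0.00799). tgttTGTA stood at 9.54%, 9.27% and 9.68% at 250 ng, against 1.77%, 2.04% and 1.85% without induction (relative change 0.25, SE 0.06, limma adjusted p = 0.0131), lost without fusion 250 ng replicate 1 or 3. tctaTGTA stood at 8.96%, 8.84% and 9.36% at 250 ng, against 1.73%, 1.98% and 1.76% without induction (relative change 0.22, SE 0.06, limma adjusted p = 0.0207), lost without non-induced replicate 1 or 3 and without fusion 250 ng replicate 1 or 3. Thus 3 of the 6 calls at position 5 held whichever library was left out. The other 6 had relative changes from -0.19 to 0.28, among them tgaaTGTA at 0.28 and tgtcTGTA at 0.16 (limma adjusted p = 0.0944 and 0.0542).

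The 2 lowest relative changes also lay in this set, in the elements with the highest background levels. tgtgTGTA stood at 8.95%, 9.37% and 9.37% at 250 ng, against 2.22%, 2.65% and 2.42% without induction. At 25 ng it stood at 5.14%, 5.47% and 5.24%, against 2.53%, 2.47% and 2.35% with ADARcdMUT alone, and it was the highest of the 32 in both background groups. Its relative change was -0.17 (SE 0.06, limma adjusted p = 0.0558), and it was called lower without non-induced replicate 1 (adjusted p = 0.0275), in the quasi-binomial model, and in a fit restricted to these 2 groups. With arcsine square roots of the edited share in place of log2 odds, its relative change was 0.003219. Its level itself was 3.80-fold higher at 250 ng, beside 4.32-fold for the median of all 8-base elements. In percentage points it rose by 6.80, beside 6.05 for that median. tggaTGTA stood at 8.18%, 7.89% and 8.53% at 250 ng, against 2.20%, 2.16% and 2.14% without induction, a relative change of -0.19 (SE 0.09, limma adjusted p = 0.207), and it too was called lower with only the 2 groups in the fit. Both elements were edited above the library median before induction, by 0.42 and 0.25 log2 odds. The one element of the library with 2 cores, TGTAtgta, opens with the core and ends with it, and was named after its value was seen. It reached 10.4% ± 0.292 at 250 ng, against 1.83% ± 0.253 without induction, while the 12 elements with the core at position 5, each of which differs from it by 1 base in the first core, averaged 8.20% to 10.4% at 250 ng.

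The 4 elements with the core at position 4 show 1 base after it and reached a median of 9.01% ± 0.227 at 250 ng and 1.82% ± 0.0590 without induction (SD, n = 3 libraries). ataTGTAt stood at 8.76%, 8.74% and 9.54% at 250 ng, against 1.68%, 1.65% and 1.69% without induction (relative change 0.34, SE 0.07, limma adjusted p = 0.00484), the lowest non-induced level of the 32. caaTGTAt stood at 9.10%, 8.92% and 8.99% at 250 ng, against 1.81%, 2.02% and 1.66% without induction (relative change 0.21, SE 0.06, limma adjusted p = 0.0411), a call that held only without non-induced replicate 1 or 2 among the 6 fits that left out 1 library. aaaTGTAt stood at 9.64%, 9.28% and 9.81% at 250 ng, against 1.93%, 2.12% and 1.82% without induction and did not pass (relative change 0.21, SE 0.08, limma adjusted p = 0.0947). ataTGTAc, the same as ataTGTAt but for its last base, averaged 8.32% ± 0.110 at 250 ng and 1.82% ± 0.0886 without induction, with a relative change of 0.09 (limma adjusted p = 0.472). All 3 libraries of ataTGTAt at 250 ng lay above those of ataTGTAc. Median relative changes by start were 0.45 at position 2, 0.22 at position 3, 0.21 at position 4 and 0.23 at position 5, and each set spanned a wider range than these medians differ.

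Since most of the 32 are also substituted consensus elements, each was set beside matched partners, elements that differ from it by 1 base inside the shifted core, hold no core, and mismatch the consensus from position 1 as often. For cores at positions 3 and 5, every partner changed the free base at position 5 or an already mismatched base at position 4 or 6. Levels in the consensus elements also differed with that free base. Loss of the shifted core and a changed site read from position 1 therefore cannot be told apart here. Partners existed for 27 elements (3 to 5 each), and 26 of the 27 exceeded the mean of their partners in 3 of 3 libraries at 250 ng, with 0 below in all 3. At 25 ng 23 were above in all 3 libraries and 0 below. With ADARcdMUT alone 8 were above and 7 below, and without induction 11 were above and 6 below. The median difference in log2 odds was 0.26 ± 0.02 at 250 ng (SD, n = 3), 0.22 ± 0.03 at 25 ng, 0.00 ± 0.04 with ADARcdMUT alone and 0.05 ± 0.02 without induction. In levels the median difference at 250 ng was 1.40 ± 0.08 percentage points and without induction 0.07 ± 0.04. For tcTGTAta the partners, such as tctctata and tctgaata, averaged 7.78% ± 0.130 at 250 ng, a difference of 0.50 ± 0.02 log2 odds, against -0.13 ± 0.07 without induction. For ggtaTGTA it was 0.52 ± 0.04 at 250 ng and 0.16 ± 0.06 without induction, the largest at 250 ng. The exception to the 26 was tggaTGTA, at 0.07 ± 0.07 with 2 of 3 libraries above, against 0.24 ± 0.05 without induction. tgtgTGTA exceeded its partners by 0.22 ± 0.03 at 250 ng and by more, 0.37 ± 0.10, without induction. The differences of tgTGTAtc and tgTGTAtg were also smaller at 250 ng than without induction. Elements with the core at position 5 had a median difference of 0.28 ± 0.02 at 250 ng. Without induction theirs was already 0.09 ± 0.03, with 6 of the 12 above their partners in all 3 libraries and 0 below. These are descriptions of single-base contrasts, with no test over the set.

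Partner levels differed around the parent with the core at position 3. The partners of tgTGTAta, single substitutions with TGT still in the first places, stood at 9.36% ± 0.210 at 250 ng, above those of the 12 other elements of the set at 7.52% to 8.19%. The parent exceeded them by 0.17 ± 0.01 log2 odds (SD, n = 3), that is 1.02 percentage points. The 6 elements changed before the core exceeded theirs by 0.23 to 0.50 log2 odds, or 1.25 to 2.86 percentage points. The 6 changed after it did so by 0.03 to 0.26 log2 odds, or 0.13 to 1.46 points. Within these, tgTGTAtc, tgTGTAtg and tgTGTAtt, without A in the last place, were 0.05 ± 0.03, 0.03 ± 0.00 and 0.03 ± 0.01 above their partners at 250 ng. Without induction their differences were 0.08 ± 0.09, 0.10 ± 0.01 and -0.01 ± 0.12. At 250 ng tgTGTAaa and tgTGTAca were 0.26 ± 0.04 and 0.22 ± 0.01 above theirs and tgTGTAga 0.10 ± 0.07. Without induction these 3 differed by -0.01 ± 0.22, 0.10 ± 0.08 and 0.03 ± 0.04, and the parent by 0.06 ± 0.03. The parent's difference at 250 ng thus lay between those of tgTGTAca and tgTGTAga, though its level was above all 3.

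At 25 ng against no induction the same comparison asked whether these elements stand out at the lower amount. All 32 were edited more, at a median of 5.04% ± 0.241 at 25 ng and 1.89% ± 0.125 without induction (SD, n = 3 libraries), and all 32 passed on the log2 odds, as did 100% of the library. Relative to the library median 13 were higher and 0 lower in limma, where 7.06% and 2.19% of all entries were. For the 0 lower, 1 had an unadjusted p under 0.05 and the quasi-binomial model called 0. Of the 13, 12 were also higher at 250 ng, and tgtcTGTA joined them: it stood at 4.94%, 5.62% and 5.07% at 25 ng, against 1.85%, 2.02% and 1.88% without induction (relative change 0.20, SE 0.05, limma adjusted p = 0.0243). The calls of tgtcTGTA and tgcaTGTA at 25 ng each held in 3 of the 6 fits that left out 1 library. Both calls were lost in the quasi-binomial model and when edited reads were counted. At 250 ng tgtcTGTA had 9.01%, 9.52% and 8.90%, against 2.11%, 1.99% and 1.86% with ADARcdMUT alone. The largest relative changes at 25 ng were those of tcTGTAta at 0.49 (SE 0.06, limma adjusted p = 8.63e-05), aTGTAcat at 0.45 (SE 0.06, limma adjusted p = 0.00019) and aTGTAtag at 0.44 (SE 0.06, limma adjusted p = 0.000147). By start, 2 of 3 were higher at position 2, 6 of 13 at position 3, 1 of 4 at position 4 and 4 of 12 at position 5. The count of 13 fell to 8 without non-induced replicate 3, to 8 without fusion 25 ng replicate 1 and to 7 without fusion 25 ng replicate 2. Both comparisons share the non-induced libraries. The relative levels of the 32 elements at 250 ng and at 25 ng, from separate libraries, had a Pearson correlation of 0.914 over elements that share bases with each other.

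From 25 ng to 250 ng all 32 elements were edited more, with a median log2 odds change of 0.96, beside 0.92 over all elements and 100% called higher. Relative to the library median 0 of 32 were higher and 0 lower in limma, as for 0% of all entries in either direction. At an unadjusted p under 0.05 the counts were also 0 and 0, and the quasi-binomial model gave 0 and 0. The relative changes ran from -0.08 for tgTGTAtc to 0.14 for aaaTGTAt, with a median of 0.05. On the arcsine square root scale, 10 of the 32 were higher, where 3.48% of all entries were.

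ADARcdMUT without PUM2 shows what the domain edits on these elements by itself. It is another construct at another stated amount, and no source used here gives the protein levels. The 32 elements had a median level of 1.98% ± 0.0988 with ADARcdMUT alone and 1.89% ± 0.125 in the non-induced fusion (SD, n = 3 libraries). Relative to the median 0 were higher and 0 lower between these 2 groups in limma, where 0.199% and 0% of all entries were. At an unadjusted p under 0.05, 1 was higher and 1 lower, and the quasi-binomial model called 0. The largest relative increase was that of aTGTAtgt, with 2.64%, 2.24% and 1.90% with ADARcdMUT alone, against 1.72%, 1.79% and 1.85% in the non-induced fusion, and it was the 1 element called higher when ADARcdMUT replicate 3 was left out. Over the ADARcdMUT libraries, 20 of the 32 were higher and 0 lower relative to the median in the fusion at 250 ng, where 10.3% and 4.37% of all entries were. At an unadjusted p under 0.05 there were 0 lower, and 0 in the quasi-binomial model, while leaving out ADARcdMUT replicate 2 called tggaTGTA lower. At 25 ng 14 were higher and 0 lower, where 7.55% and 2.49% of all entries were, with 0 lower at an unadjusted p under 0.05 and in the quasi-binomial model. By start the 20 were 2 at position 2, 9 at position 3, 2 at position 4 and 7 at position 5.

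Levels at 25 ng and with ADARcdMUT alone are given here for the called elements not yet shown there, and for tgTGTAtc and tggaTGTA, which were not called in any of these comparisons over all libraries but had 2 of the 3 lowest relative changes at 250 ng. Among the elements changed before a core at position 3, ttTGTAta stood at 5.44%, 5.52% and 5.35% at 25 ng, against 2.09%, 1.77% and 1.90% with ADARcdMUT alone. taTGTAta had 5.42%, 5.75% and 5.10% at 25 ng, against 1.94%, 1.96% and 1.84% with ADARcdMUT alone. agTGTAta had 5.41%, 5.35% and 5.03% at 25 ng, against 2.15%, 1.88% and 1.77% with ADARcdMUT alone. All of these libraries at 25 ng were at 5% or more. ggTGTAta had 4.98%, 5.12% and 4.83% at 25 ng, against 2.02%, 2.01% and 1.75% with ADARcdMUT alone. cgTGTAta had 4.81%, 5.14% and 4.82% at 25 ng, against 2.12%, 1.82% and 1.96% with ADARcdMUT alone. Changed after the core, tgTGTAaa had 4.97%, 4.87% and 5.23% at 25 ng, against 1.97%, 1.95% and 1.87% with ADARcdMUT alone. Without A in the last place, 2 elements shown in every library were lower than tgTGTAta at 25 ng. tgTGTAtc had 4.53%, 4.93% and 4.70% at 25 ng, against 2.48%, 2.06% and 1.98% with ADARcdMUT alone. tgTGTAtt had 4.58%, 4.40% and 4.37% at 25 ng, against 1.92%, 1.79% and 1.65% with ADARcdMUT alone, its mean being the lowest of the 32 in that group. None of the libraries of either at 25 ng reached those of tgTGTAta.

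With the core at position 5, tgcaTGTA stood at 5.09%, 5.27% and 5.04% at 25 ng, against 2.23%, 2.29% and 1.90% with ADARcdMUT alone. tttaTGTA had 5.07%, 5.51% and 4.88% at 25 ng, against 2.16%, 1.61% and 1.79% with ADARcdMUT alone. agtaTGTA had 5.07%, 5.14% and 4.86% at 25 ng, against 2.03%, 1.65% and 1.82% with ADARcdMUT alone. Their relative changes over ADARcdMUT alone at 25 ng were 0.12, 0.34 and 0.31 (limma adjusted p = 0.237, 0.0149 and 0.00425). tgttTGTA had 4.92%, 5.96% and 5.07% at 25 ng, against 2.04%, 1.85% and 1.93% with ADARcdMUT alone. tctaTGTA had 4.72%, 5.52% and 4.57% at 25 ng, against 2.04%, 1.98% and 1.97% with ADARcdMUT alone. tggaTGTA had 4.33%, 5.23% and 4.53% at 25 ng, against 2.86%, 1.98% and 2.13% with ADARcdMUT alone. The last of these was the lowest at 25 ng among the elements of this start and had the second highest background. With the core at position 4, ataTGTAt stood at 4.73%, 4.69% and 4.56% at 25 ng, against 2.19%, 1.76% and 1.94% with ADARcdMUT alone. caaTGTAt had 4.96%, 5.69% and 4.71% at 25 ng, against 1.94%, 1.98% and 1.75% with ADARcdMUT alone. aaaTGTAt had 4.84%, 4.77% and 4.96% at 25 ng, against 2.05%, 1.67% and 1.92% with ADARcdMUT alone. In every element of the 32 all 3 libraries at 25 ng lay above all 3 with ADARcdMUT alone. On the log2 odds without centring limma called 100% of all entries higher in this comparison, so this was not particular to the 32.

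In these comparisons tcTGTAta changed by 0.57 (SE 0.06, limma adjusted p = 1.23e-05) at 250 ng and 0.49 (SE 0.06, limma adjusted p = 6.67e-05) at 25 ng relative to ADARcdMUT alone, and aTGTAtag by 0.49 (SE 0.06, limma adjusted p = 4.65e-05) and 0.48 (SE 0.06, limma adjusted p = 6.67e-05). Called at 250 ng over ADARcdMUT alone but not over the non-induced fusion were aaaTGTAt (relative change 0.36, SE 0.08, limma adjusted p = 0.00411), cgTGTAta (relative change 0.25, SE 0.06, limma adjusted p = 0.0143), tgTGTAtt (relative change 0.21, SE 0.06, limma adjusted p = 0.0268) and tgtcTGTA (relative change 0.21, SE 0.05, limma adjusted p = 0.014). aaaTGTAt stood at 9.64%, 9.28% and 9.81% at 250 ng, against 2.05%, 1.67% and 1.92% with ADARcdMUT alone. tgTGTAtt stood at 8.28%, 8.33% and 8.30% at 250 ng, against 1.92%, 1.79% and 1.65% with ADARcdMUT alone, and lost the call without any one of the 3 libraries at 250 ng. Only ataTGTAt passed the other way round, being called over the non-induced fusion and not over ADARcdMUT alone (relative change 0.20, SE 0.07, limma adjusted p = 0.0763). In all 4 comparisons of an induced fusion with a background group, 11 elements were higher: aTGTAcat, aTGTAtag, agTGTAta, ggTGTAta, taTGTAta, tcTGTAta, tgTGTAta, ttTGTAta, caaTGTAt, ggtaTGTA and tgttTGTA. Each comparison alone called 7.06% to 10.3% of all entries higher, and the share called in all 4 was not counted. Not all of these calls were stable. At 25 ng against no induction, ggTGTAta kept its call in 1 of the 6 fits that left out 1 library. caaTGTAt and taTGTAta kept it in 3 of 6, and ggtaTGTA and tgttTGTA in 4 of 6.

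Editing can grow by more reads with any edit or by more edits per edited read, and the shifted-core elements showed both. At 250 ng their median share of edited reads was 24.0% ± 0.407 (SD, n = 3 libraries), beside 22.3% ± 0.402 over the 8-base elements and 29.2% ± 0.287 over the consensus. The edits per edited read were 2.72 ± 0.0280, 2.48 ± 0.0176 and 3.20 ± 0.0383 in the same order. Without induction the 32 had 7.21% ± 0.119 of reads edited and 1.83 ± 0.0879 edits per edited read. For tcTGTAta at 250 ng the values were 25.9% ± 0.396 and 2.88 ± 0.0195, and for tgTGTAtc 22.5% ± 0.467 and 2.51 ± 0.0346. When the log2 odds of a read being edited replaced those of an adenosine, 10 of the 32 were higher at 250 ng against no induction, where 6.66% of all entries were, in place of 17, and the median relative change was 0.10. The share of a library's reads taken by these elements moved little, by a median of 0.09 on the log2 scale at 250 ng against no induction (range -0.14 to 0.29), beside 0.01 over the 8-base elements.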

How the data were processed

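PCR amplicons of the recorder 3′ UTR were sequenced per the labels' protocols, whose extraction text names another organism's embryos. HEK293T was taken from the cell line label and the design text. No source used here gives the aligner, edit caller or filters. The authors deposited per element counts (reads, reads edited, edits, all reads), a percent of all reads, a percent edited and an efficiency score. The deposited percent edited equals edits over 7 times the reads within 1e-09. Of 1022 elements seen, 16 were not listed in all 12 libraries and were left out, none with a shifted core. No molecular identifiers are mentioned, so counting error covers counting only, and replicate spread was used instead: members varied between replicates 5.66 to 20.6 times as much as binomial sampling gives (variance, group medians). No 2 replicates were the same library, since chi-squared per degree of freedom of their reads was 6.24 to 202.

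Groups come from titles. log2((edits + 0.5)/(7 × reads − edits + 0.5)) was fitted with limma 3.58.1 (R 4.3.3, lmFit, eBayes with trend) over all 12 libraries and 1006 entries, uncentred and centred on each library's median over the 8-base elements, with Benjamini-Hochberg adjustment per comparison and a call under 0.05. Every member may be named, and values in every library are given for members called over a background group, the single substitution, and the 3 highest and 3 lowest relative changes. On simulated data of 1006 elements (250 ng against non-induced, 200 changed, variance 4 times binomial) centred values recovered 94% of those changed by 0.25 and 100% by 0.5, with 1 false call. That variance is below the one measured, so real power may be lower. Python 3.11.15 with numpy, pandas and scipy served for the rest. Members, lists and tests were chosen with earlier results of these data known. Alternatives, with their effect in the closing section, were a pseudocount of 5, arcsine square roots, edited reads in place of edits, a quasi-binomial model, at least 5000 reads, 2 groups only, a replicate block, centring on elements without TGT, each library left out, and partners of any mismatch number.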

Additional observations from a re-analysis of the deposited data

How the results depend on the processing

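Values are given where an alternative changed a count by over 1.5 times or a median by over 1 SD between libraries, as for 31 recomputed counts and medians, while 421 stayed within those limits. Counting edited reads in place of edited adenosines moved most. Higher elements relative to the library median were then 10 at 250 ng and 8 at 25 ng against no induction (6.66% and 5.57% of all entries). Against ADARcdMUT alone they were 11 and 9 (7.46% and 5.96% of all entries). The median relative change became 0.10 at 250 ng and 0.10 at 25 ng over all 32, 0.24 and 0.25 for a start at position 2, 0.0778 and 0.0437 at position 3, 0.11 at position 4 (250 ng), and 0.11 and 0.10 at position 5. The matched-partner difference became 0.13 at 250 ng and 0.12 at 25 ng. The arcsine square root scale gave 10 higher at 250 ng against 25 ng (3.48% of all entries) and 25 at 250 ng against no induction (15.2% of all entries). A fit restricted to the 2 groups gave 22 in the latter comparison (13.1% of all entries). Lower elements at 250 ng against no induction were 2 in that restricted fit and 1 in the quasi-binomial model. A minimum of 5000 reads gave a median of 0.25 at position 5 (250 ng).

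Leaving out 1 library gave 13 to 16 higher elements at 250 ng and 7 to 14 at 25 ng against no induction, 14 to 22 and 12 to 16 against ADARcdMUT alone, and 0 to 1 for ADARcdMUT alone against no induction (0 to 2 on the uncentred scale). Lower elements numbered 0 to 1 at 250 ng against either background. Medians ran from 0.39 to 0.48 at position 2 (250 ng), from 0.13 to 0.18 at position 3 (25 ng), and at position 5 from 0.20 to 0.25 at 250 ng and from 0.17 to 0.20 at 25 ng. Of the calls, 12 of 17, 6 of 13, 13 of 20 and 12 of 14 held in every such fit, in the order 250 ng and 25 ng against no induction and then against ADARcdMUT alone. Signs turned in single elements, and the cause was not tested. None of these elements was called in the comparison named by limma over all 12 libraries on the log2 odds of edits. Other fits called tgtgTGTA lower at 250 ng. At 250 ng these were tgTGTAga (-0.06914 to 0.003181 without 1 library) and, on the arcsine scale, tgTGTAtg (0.001262) and tgtgTGTA (0.003219). At 25 ng they were tgtgTGTA on the arcsine scale (0.000965), cgtaTGTA by edited reads (-0.01218), tgTGTAtt without 1 library (-0.008908 to 0.08925), and tgTGTAtc in the quasi-binomial model (-0.001041) and without 1 library (-0.02959 to 0.03407). Same-numbered replicates of different groups correlated by -0.09 to 0.07 in their deviations, with 0 of 18 pairs above 0.1. The deviations were of values centred on each library's median, so a shift shared by whole libraries could not show in them. Whether equal numbers mark shared handling is therefore not settled. With that number as a block, 18 and 13 elements were higher at 250 ng and 25 ng against no induction, and 21 and 14 against ADARcdMUT alone.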
